A study of Mus musculus with 8 samples.

Results

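The genes described here repair DNA by the Fanconi anaemia, homologous recombination and mismatch pathways, together with a few of their checkpoint and end-repair partners. They were matched by gene name on a mouse expression array. The name rule used no measured values, but the set was chosen with earlier results of these data known. The names matched 85 of 43020 spots, 67 of 39429 probes and 47 of 31751 genes, and 44 of these genes could be tested among 16159 tested in all. The cells were C10, a mouse pre-B line from the HAFTL lineage in which C/EBPα can be switched on. A line labelled as carrying an shRNA against Tet2 was sampled at 24 h of induction and at 0 h, and a line with a control shRNA was sampled at the same times. Induction meant 10 ng/ml of M-CSF, the same concentration of IL-3 and 100 nM estradiol, while the 0 h cells received none of these. Each of the 4 groups has 2 arrays, called technical duplicates in the series' design. The p-values below therefore measure the spread between arrays and not between cultures.

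Cells call on these pathways at different kinds of damage. The Fanconi core complex is a ubiquitin ligase that acts where a crosslink blocks a replication fork, and the pair it modifies, FANCD2 with FANCI, directs the cutting of the link and its repair by recombination. In homologous recombination BRCA1, PALB2 and BRCA2 help resected DNA to pair with the sister chromatid. Mismatch repair removes replication errors. Much of this repair is used in S phase, and many of the genes are transcribed most in dividing cells.

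Several limits of these arrays touch every result. No loss of the Tet2 transcript was measured in the line labelled knockdown. Its log2 difference from control was 0.01 ± 0.10 at 24 h (adjusted p = 0.98 in limma) and -0.11 ± 0.10 at 0 h (adjusted p = 0.53), so differences between the lines are differences between labels. Pre-B markers stood well above background in every group (12 of 12). The mean log2 signal of these 12 markers was 2.33 to 2.60 across the 24 h arrays and 4.20 to 4.31 across the 0 h arrays. For 10 macrophage markers the mean was 4.09 to 4.20 at 24 h and -1.82 to -1.61 at 0 h. Of 7 T cell markers 3 (Cd3e, Cd4 and Lck) stood well above background in each group, and the mean level over all 7 was -4.31 to -3.38 at 24 h and -4.54 to -3.78 at 0 h. Of 5 erythroid markers 1 or 2 did, with a mean over all 5 of -6.12 to -5.35 at 24 h and -6.10 to -5.58 at 0 h. Of 5 stromal markers 1 or 2 did at 24 h and 0 did at 0 h, with a mean over all 5 of -6.17 to -5.29 at 24 h and -7.29 to -6.58 at 0 h. The defining genes Cd3g, Cd8a, Hbb-bt, Col1a1, Col3a1 and Dcn were not well above background in any group. Of those that were, Cd4 rose by 1.18 in the line labelled knockdown and 1.33 in the control line, and the stromal gene Pdgfrb, not well above background at 0 h, was at least 5.0-fold higher at 24 h in the line labelled knockdown and at least 9.87-fold higher in the control line. The part of these marker shifts in the results below was not tested. Cebpa was not well above background in any group either. Across all tested genes, r between the duplicates of a group was 0.992 to 0.994.

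A level is given as log2 of a probe's signal over the 75th percentile of its array, so that 0 is the 75th percentile and each unit is a factor of 2. Levels of different probes are not comparable with each other. A gene is called changed where its limma p, adjusted over all 16159 genes, is under 0.05 and its change is at least 2-fold. Differences are log2 values with the standard error of the fit, and each group has n = 2 arrays. A level marked as not well above background is a reading that the scanner software did not flag as well above its background. In these bulk cultures, fewer cells that express a gene and less of its RNA per cell cannot be told apart.

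Induction was the comparison in which the repair genes moved. In the line labelled knockdown 36 of the 44 tested genes fell and 2 rose, where 15.4% of all tested genes fell and 16.7% rose. The control line gave 37 lower and 2 higher, where 13.1% of all tested genes fell and 14.1% rose. All 36 genes that fell in the line labelled knockdown also fell in the control line, and both rising genes, Msh5 and Rad51c, were the same. The median change over the 44 was -1.95 in the line labelled knockdown and -1.79 in the control line, while the median over all tested genes was 0.14 and -0.00. Placing genes that were not well above background at 24 h at their lower bound left the repair medians at -1.88 and -1.74. In each line 42 of 44 genes had both 24 h arrays below both 0 h arrays. Of all tested genes, 38.3% were placed this way in the line labelled knockdown and 39.5% in the control line.

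**Figure D1:**
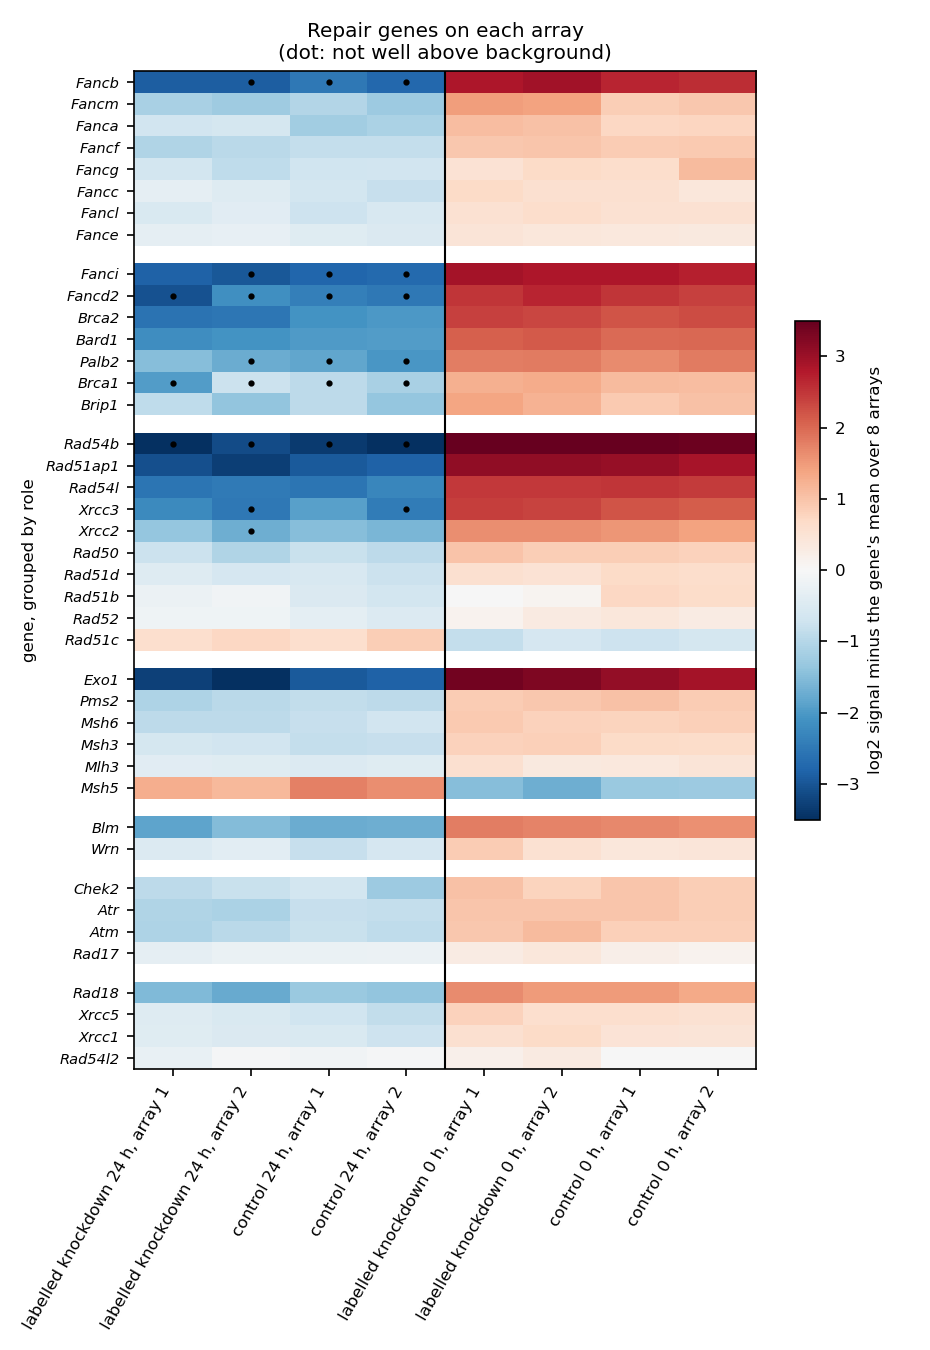
Colour gives each array's log2 signal minus the gene's mean over the 8 arrays, with 24 h arrays left of the line and 0 h arrays right of it. The 41 genes drawn of the 44 tested run down the page by role, and a dot marks a reading not well above background. Only Msh5 and Rad51c are higher at 24 h on all arrays of both lines, and the shifts of Exo1 and Rad51ap1 are among the deepest drawn. Rad54b also reads far lower at 24 h, where none of its readings is well above background.

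The depth of the fall differed widely among genes. Fitted falls of at least 8-fold were seen for 15 genes in the line labelled knockdown and 14 in the control line, and falls of at least 16-fold for 11 and 10. These counts include fitted falls that the bounds of dim genes do not reach. The bound of Fancd2 was 10.8-fold in the line labelled knockdown and 7.71-fold in the control line, and that of Palb2 was 6.41-fold in the control line. At the other end, 15 and 18 genes fell by less than 4-fold. Among the 35 genes well above background on all 8 arrays, 27 fell in the line labelled knockdown and 28 in the control line. The median by role was -4.26 and -3.96 for the FANCD2-FANCI pair with its BRCA-linked partners, -3.17 and -3.03 for the strand-exchange factors, -1.63 and -1.51 for mismatch repair and -1.52 and -1.64 for the core complex. Of the genes that fell, 3 in the line labelled knockdown and 6 in the control line were not well above background on any 24 h array. The bound on the fall was at least 2-fold for 2 and 5 of these, and Brca1 was the exception in both lines.

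**Figure D2:**
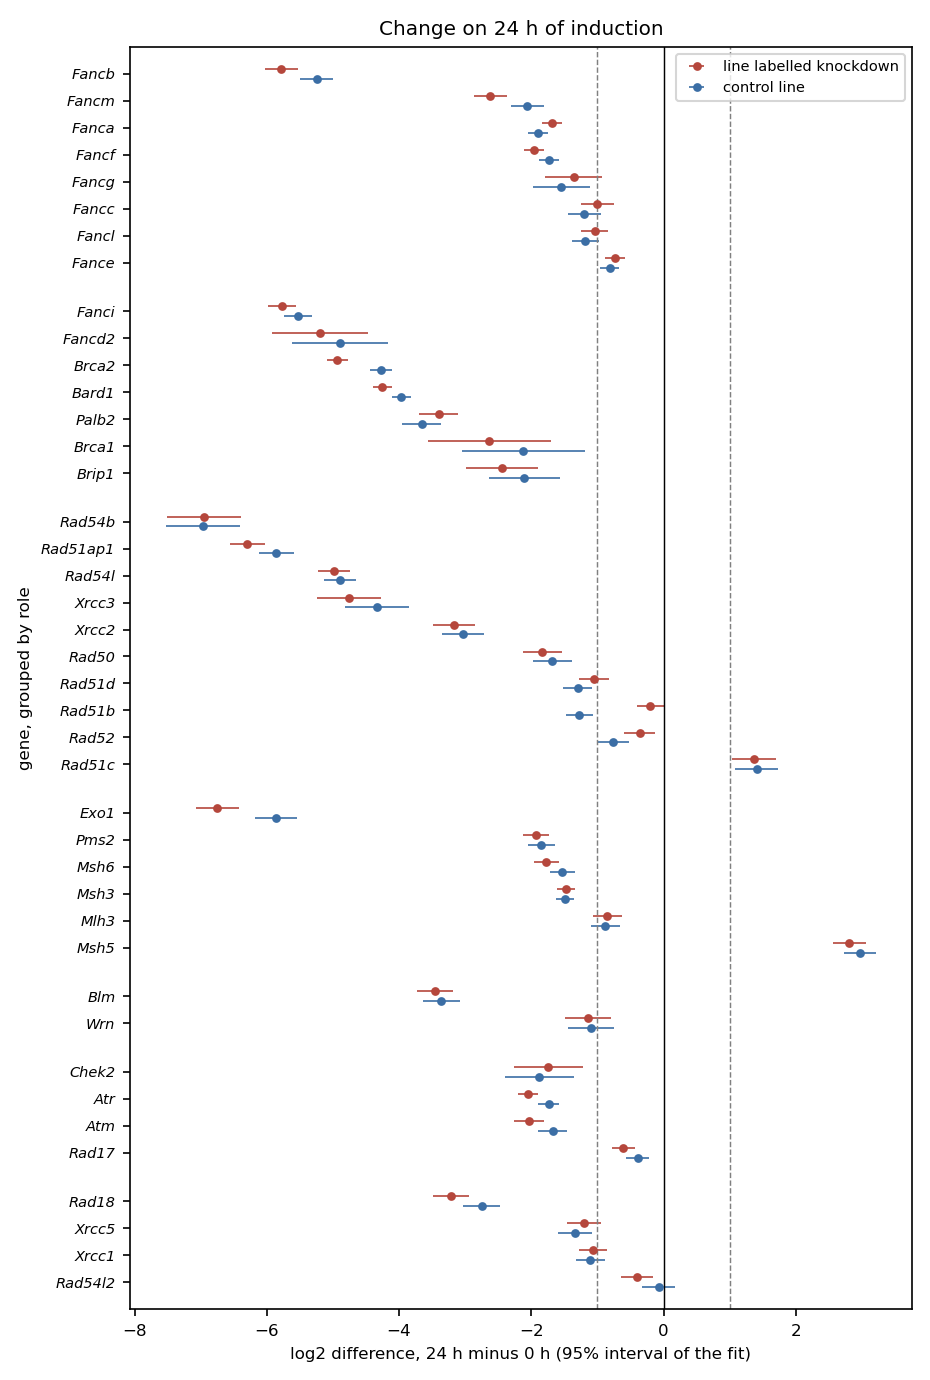
Points give the log2 difference, 24 h minus 0 h, for 41 of the 44 genes in the line labelled knockdown (upper point of each pair) and the control line (lower point), with 95% intervals of the limma fit from 2 arrays per group. Dashed lines mark a 2-fold change. Most pairs lie left of -1, and the pairs of Rad51b, Exo1 and Brca2 stand furthest apart relative to their intervals.

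The sequences upstream of 4 of the most strongly lowered genes, and of Rad51c, which rose, are shown so that the DNA letters at their start sites can be read beside the values that follow. Rad51c was added after its value was seen. Each runs 5′ to 3′ on the gene's own strand, from 180 bases before the RefSeq start to 30 bases after it (GRCm38.p6). Capitals mark a match on either strand to an E2F core (TTCCCGC or TTCGCGC or TTGCCGC or TTGGCGC), to the CHR element TTTGAA or to the CCAAT box. The E2F family and the proteins that bind CHR elements are textbook regulators of genes needed for division, and CCAAT is bound by NF-Y. A reverse CCAAT can share letters with the core TTGGCGC.
Rad51ap1, chr6:126939558-126939767, minus strand: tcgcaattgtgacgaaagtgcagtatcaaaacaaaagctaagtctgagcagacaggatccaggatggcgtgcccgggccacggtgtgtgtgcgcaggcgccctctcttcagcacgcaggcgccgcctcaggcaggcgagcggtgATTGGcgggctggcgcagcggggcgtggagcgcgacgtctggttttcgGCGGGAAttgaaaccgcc
Fanci, chr7:79392158-79392367, plus strand: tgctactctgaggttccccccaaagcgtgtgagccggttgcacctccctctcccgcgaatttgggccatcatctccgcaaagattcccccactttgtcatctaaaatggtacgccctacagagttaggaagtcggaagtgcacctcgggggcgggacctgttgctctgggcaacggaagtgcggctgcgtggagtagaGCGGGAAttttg
Fancb, chrX:164980412-164980621, plus strand: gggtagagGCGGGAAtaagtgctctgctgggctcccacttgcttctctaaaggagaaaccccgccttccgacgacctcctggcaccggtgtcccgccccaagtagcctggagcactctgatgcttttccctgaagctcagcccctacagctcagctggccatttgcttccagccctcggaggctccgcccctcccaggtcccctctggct
Rad54l, chr4:116123661-116123870, minus strand: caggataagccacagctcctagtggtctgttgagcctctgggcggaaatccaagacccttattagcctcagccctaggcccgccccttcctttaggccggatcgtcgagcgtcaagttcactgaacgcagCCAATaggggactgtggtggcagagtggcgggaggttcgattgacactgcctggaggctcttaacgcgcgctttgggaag
Rad51c, chr11:87404477-87404686, minus strand: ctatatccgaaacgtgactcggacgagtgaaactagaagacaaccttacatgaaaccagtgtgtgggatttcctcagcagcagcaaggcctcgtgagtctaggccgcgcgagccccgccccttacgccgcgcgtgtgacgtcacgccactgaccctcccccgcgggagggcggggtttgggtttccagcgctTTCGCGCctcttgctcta

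An E2F core was found in Rad51ap1 and Fanci just after the start, in Fancb at the far upstream end and in the Rad51c stretch shown just after the start. RefSeq gives Rad51c another window with a different start, not shown, which held E2F cores starting 68 and 5 bases before that start. The 2 Rad54l windows differ by 1 base in their start. The Rad54l stretch held a CCAAT box and no E2F core. RefSeq's promoter table had a window for 36 of the 47 genes, each reaching from 250 bases before the start to 50 after it. An E2F core stood in the windows of 21 of these 36 genes (58.3%), against 10.9% of all 27025 genes in the table, 13.7% of its 17492 protein-coding genes and 18.4% of the 9745 genes also tested on the arrays. The share was 59.3% of the 27 that fell in the control line and 55.6% of the 9 others, which include untested genes. CCAAT was found in 22 of 36 (61.1%), against 41.1% of all genes in the table and 43.3% of those also tested. It was found in 70.4% of the members that fell and 33.3% of the others. TTTGAA was found in 3 of 36 (8.33%), against 20.2% of all genes in the table and 14.9% of those also tested on the arrays. These are matches of letters, and binding was not measured.

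In the Fanconi core complex 7 of 8 genes fell in each line. Fancb, which holds the catalytic module of the ligase together, read -4.78 and -4.79 at 24 h against 0.95 and 1.04 at 0 h in the line labelled knockdown. The control line gave -4.38 and -4.64 at 24 h against 0.78 and 0.69 at 0 h. The groups did not overlap in either line, and only 1 of the 4 readings at 24 h was well above background. The fall was 5.78 ± 0.10 in the line labelled knockdown (adjusted p = 8.7e-07 in limma). In the control line Fancb changed by -5.245 ± 0.10 (adjusted p = 1.3e-06 in limma), with neither 24 h reading well above background.

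Fancm, a translocase that recognises stalled forks, was at -3.33 and -3.42 at 24 h against -0.72 and -0.79 at 0 h in the line labelled knockdown. The control line had -3.21 and -3.46 against -1.31 and -1.25. All 4 induced arrays lay below all 4 uninduced ones, and the uninduced lines also lay apart. Fancm changed by -2.62 ± 0.10 in the line labelled knockdown and by -2.06 ± 0.10 in the control line. Fance, which joins the core to FANCD2, moved least in this group. It read 2.85 and 2.88 at 24 h against 3.63 and 3.57 at 0 h in the line labelled knockdown, and 2.75 and 2.68 against 3.55 and 3.51 in the control line. Its differences of -0.73 ± 0.06 and -0.81 ± 0.06 passed the adjusted p (0.00013 and 9.4e-05 in limma) but not the 2-fold threshold. The other members fell to intermediate depths. Fancl, the ligase subunit itself, changed by -1.04 ± 0.08 in the line labelled knockdown and -1.18 ± 0.08 in the control line, and Fanca by -1.69 ± 0.06 and -1.90 ± 0.06. Fancf gave -1.96 and -1.74, Fancg -1.36 and -1.55, and Fancc -1.0 and -1.20.

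All 7 genes of the FANCD2-FANCI pair and its BRCA-linked partners were called lower in both lines. For Brca1 the call rests on 24 h readings not well above background, without a 2-fold bound. The median was -4.26 in the line labelled knockdown and -3.96 in the control line. Fanci stood at -4.63 and -4.79 at 24 h against 1.10 and 1.03 at 0 h in the line labelled knockdown. In control cells it stood at -4.59 and -4.52 against 1.03 and 0.91. The 0 h arrays of both lines were close together and far above every 24 h array, of which 1 of 4 was well above background. Fanci changed by -5.77 ± 0.08 in the line labelled knockdown (adjusted p = 6.4e-07 in limma). In the control line it changed by -5.52 ± 0.08 (adjusted p = 9.5e-07 in limma), with neither 24 h reading well above background.

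Fancd2 read -7.24 and -6.33 at 24 h against -1.68 and -1.50 at 0 h in the line labelled knockdown, and -6.56 and -6.68 against -1.67 and -1.78 in the control line. None of the 4 readings at 24 h was well above background. By its bound, the line labelled knockdown was at least 10.8-fold lower at 24 h, and the control line at least 7.71-fold lower. The fitted changes were -5.20 ± 0.29 (adjusted p = 2.9e-05 in limma) and -4.89 ± 0.29 (adjusted p = 4.3e-05). The Fancd2 probe was kept through its 0 h arrays alone, and these p-values do not test the bounds. Brip1, a helicase that binds BRCA1, moved least here. It read -3.52 and -4.02 at 24 h against -1.24 and -1.41 at 0 h in the line labelled knockdown, and -3.54 and -3.99 against -1.72 and -1.61 in the control line. The 2 arrays of each induced group were further apart than those of any other group of this gene, yet the groups did not overlap, and the changes were -2.45 ± 0.22 and -2.10 ± 0.22.

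Among the remaining partners, Brca2, a central mediator of recombination, changed by -4.93 ± 0.07 in the line labelled knockdown and -4.28 ± 0.07 in the control line. Bard1, the partner of BRCA1 in its ubiquitin ligase, gave -4.26 ± 0.06 and -3.96 ± 0.06. Palb2, the bridge between BRCA1 and BRCA2, gave -3.40 ± 0.12 in the line labelled knockdown, with 1 of 2 arrays at 24 h well above background, and was at least 6.41-fold lower in the control line. Brca1 itself was not well above background at 24 h in either line. It was at least 1.36-fold lower in the line labelled knockdown by its bound, and its fitted change there was -2.63 ± 0.37 (adjusted p = 0.0014 in limma). No fold can be given for it in the control line, where its fitted change was -2.12 ± 0.37 (adjusted p = 0.0038 in limma). The Brca1 probe was kept through its 0 h arrays alone, so these tests do not show a fall of at least 2-fold.

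The strand-exchange factors of homologous recombination included deep falls and a rise. Of 11 tested genes 8 fell and 1 rose in the line labelled knockdown, and 9 fell and 1 rose in the control line. Rad54b, a motor protein of the Swi2/Snf2 family that acts in recombination, read -7.13 and -6.46 at 24 h against 0.14 and 0.15 at 0 h in the line labelled knockdown. The control line had -6.70 and -6.97 against 0.17 and 0.11. None of the 24 h readings was well above background, and all 4 lay far below the 0 h readings. By its bound, the line labelled knockdown was at least 36.0-fold lower at 24 h, and the control line at least 28.2-fold lower. The fitted changes were -6.94 ± 0.22 (adjusted p = 4.5e-06 in limma) and -6.97 ± 0.22 (adjusted p = 5.3e-06). The Rad54b probe was also kept through its 0 h arrays alone, and these p-values do not test the bounds.

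Rad51ap1, which stimulates strand pairing, changed by -6.30 ± 0.11 in the line labelled knockdown and -5.85 ± 0.11 in the control line, and Rad54l, a relative of Rad54b that also acts in recombination, by -4.99 ± 0.10 and -4.89 ± 0.10.

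The 5 paralogues Rad51b, Rad51c, Rad51d, Xrcc2 and Xrcc3, which form complexes that act in recombination, did not move together. Xrcc3 changed by -4.75 ± 0.19 in the line labelled knockdown and -4.34 ± 0.19 in the control line, with 1 of 2 induced arrays well above background in each line. Xrcc2 changed by -3.17 ± 0.13 in the line labelled knockdown, with 1 of 2 induced arrays well above background, and by -3.03 ± 0.13 in the control line. Rad51d changed by -1.05 ± 0.09 and -1.30 ± 0.09.

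Rad51c rose. It read 5.09 and 5.23 at 24 h against 3.67 and 3.90 at 0 h in the line labelled knockdown, and 5.09 and 5.37 against 3.76 and 3.88 in the control line. The induced arrays of the lines overlapped with each other and lay above every uninduced array. The rise was 1.37 ± 0.13 (adjusted p = 0.00026 in limma) in the line labelled knockdown and 1.41 ± 0.13 (adjusted p = 0.00027) in the control line. It rests on 1 probe, A_55_P1955891, at chr11:87190997-87191056 of mm9 on the minus strand. The first 30 bases of that probe are shown because they open with a simple repeat, marked in capitals.
A_55_P1955891: TGTGTGTGTGTGTGTGgtggtggtggtgtt
Of the 39429 probes, 104 (0.264%) held at least 6 TG units in a row, and this was the only one of the 67 repair probes that did. Whether the probe reads other transcripts was not tested.

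Rad51b was the paralogue whose induction differed between the lines. It read -1.30 and -1.23 at 24 h against -1.11 and -1.02 at 0 h in the line labelled knockdown, and -1.61 and -1.76 against -0.37 and -0.46 in the control line. The control line had both the highest and the lowest readings, and the 4 arrays of the line labelled knockdown lay between them. The change was -0.20 ± 0.08 in the line labelled knockdown, which did not pass the test (adjusted p = 0.070 in limma), and -1.27 ± 0.08 in the control line (adjusted p = 5.8e-05). Rad52, which anneals single strands, moved least in the group in the control line. It read -0.65 and -0.66 at 24 h against -0.38 and -0.20 at 0 h in the line labelled knockdown, and -0.85 and -1.0 against -0.11 and -0.22 in the control line. The groups did not overlap within either line, and the differences of -0.36 ± 0.09 and -0.76 ± 0.09 were under 2-fold. The Rad52 probe was printed in 10 spots, whose SD within an array was between 0.031 and 0.073. Rad50, the ATPase of the complex that tethers broken ends, changed by -1.83 ± 0.12 and -1.69 ± 0.12. Rad51ap2 was not well above background in enough arrays to be tested.

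Mismatch repair genes fell moderately, with a nuclease and a meiotic gene apart from the rest. In each line 6 of 8 tested genes fell and 1 rose. Exo1, the nuclease that removes the strand carrying the error and also resects breaks, read -3.38 and -3.70 at 24 h against 3.26 and 3.15 at 0 h in the line labelled knockdown. The control line had -3.04 and -2.94 against 2.96 and 2.79. At 24 h the line labelled knockdown lay below the control line and at 0 h above it. Exo1 changed by -6.75 ± 0.13 (adjusted p = 1e-06 in limma) and -5.86 ± 0.13 (adjusted p = 1.8e-06).

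Msh5 works with MSH4 at crossovers in meiosis, and its tested probe, A_51_P429865, rose. It read -1.42 and -1.56 at 24 h against -4.19 and -4.40 at 0 h in the line labelled knockdown, and -0.93 and -1.06 against -3.98 and -3.96 in the control line. All induced arrays lay above all uninduced ones. The rise was 2.81 ± 0.10 (adjusted p = 6e-06 in limma) in the line labelled knockdown and 2.97 ± 0.10 (adjusted p = 5.8e-06) in the control line. The other Msh5 probe, A_55_P2273811, was also well above background on all 8 arrays and gave 0.05 ± 0.16 and -0.02 ± 0.16. Both probes lie on the minus strand of chromosome 17 in mm9, and they are shown in full because the call for Msh5 depends on which of them is read. The rising one maps across 403 bases of genome for its 60 bases, and the other is continuous.
A_51_P429865, chr17:35165774-35166176: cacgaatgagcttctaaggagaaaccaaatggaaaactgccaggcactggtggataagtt
A_55_P2273811, chr17:35180982-35181041: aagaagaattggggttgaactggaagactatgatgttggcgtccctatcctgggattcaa
Msh4 was not well above background in enough arrays to be tested.

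Other mismatch genes fell less. Msh6, which senses single mismatches, changed by -1.78 ± 0.08 in the line labelled knockdown and -1.53 ± 0.08 in the control line. Msh3, which senses larger loops, gave -1.48 ± 0.05 and -1.49 ± 0.05. Pms2, a subunit of the endonuclease that nicks the new strand, gave -1.93 ± 0.08 and -1.85 ± 0.08. Mlh3, a MutL relative, moved least. It read -2.49 and -2.51 at 24 h against -1.54 and -1.76 at 0 h in the line labelled knockdown, and -2.59 and -2.53 against -1.72 and -1.65 in the control line. Its groups did not overlap, but the differences of -0.85 ± 0.09 and -0.88 ± 0.09 stayed under 2-fold.

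Both RecQ helicases in the set fell. Blm, which dissolves joined recombination intermediates, read -1.74 and -1.43 at 24 h against 1.89 and 1.85 at 0 h in the line labelled knockdown, and -1.63 and -1.61 against 1.78 and 1.70 in the control line. Wrn, a helicase that also has nuclease activity, read -3.17 and -3.07 against -1.80 and -2.16 in the line labelled knockdown, and -3.49 and -3.29 against -2.31 and -2.28 in the control line. Neither gene's groups overlapped. Blm changed by -3.46 ± 0.11 and -3.36 ± 0.11, and Wrn by -1.14 ± 0.14 and -1.10 ± 0.14.

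Of 4 tested checkpoint genes 3 fell in each line. Chek2, a kinase that ATM activates, read -3.07 and -2.94 at 24 h against -1.14 and -1.38 at 0 h in the line labelled knockdown, and -2.81 and -3.42 against -1.19 and -1.28 in the control line. Atr, the kinase that senses single-stranded DNA at stalled forks, read 0.36 and 0.31 against 2.39 and 2.37 in the line labelled knockdown, and 0.61 and 0.58 against 2.39 and 2.28 in the control line. Both genes had every induced array below every uninduced one. Chek2 changed by -1.75 ± 0.21 and -1.88 ± 0.21, and Atr by -2.05 ± 0.06 and -1.74 ± 0.06. Atm, which responds to double-strand breaks, gave -2.03 ± 0.09 and -1.68 ± 0.09.

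Rad17, which loads the checkpoint clamp, changed least of these. It read 0.64 and 0.71 at 24 h against 1.23 and 1.35 at 0 h in the line labelled knockdown, and 0.71 and 0.75 against 1.16 and 1.08 in the control line. The groups did not overlap, and the differences of -0.61 ± 0.07 and -0.39 ± 0.07 were under 2-fold. The only Chek1 probe was well above background on 2 of 8 arrays and was not tested.

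Other repair factors were mixed. Rad18, the ligase that marks PCNA at blocked forks, read -1.77 and -1.99 at 24 h against 1.41 and 1.26 at 0 h in the line labelled knockdown, and -1.55 and -1.62 against 1.26 and 1.08 in the control line. Xrcc5, which encodes a subunit of the Ku end-joining factor, read 1.10 and 1.01 against 2.37 and 2.14 in the line labelled knockdown, and 0.85 and 0.70 against 2.15 and 2.08 in the control line. Both fell on every induced array. Rad18 changed by -3.22 ± 0.11 and -2.75 ± 0.11, and Xrcc5 by -1.20 ± 0.10 and -1.34 ± 0.10. Xrcc1, the scaffold of single-strand break repair, gave -1.07 ± 0.09 and -1.11 ± 0.09.

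Rad54l2 shares its name and ATPase family with the RAD54 motors and is known as a partner of nuclear receptors. It read -0.42 and -0.19 at 24 h against 0.02 and 0.16 at 0 h in the line labelled knockdown, and -0.27 and -0.20 against -0.16 and -0.17 in the control line. The control groups lay close together without overlapping. Its differences were -0.40 ± 0.10 (adjusted p = 0.013 in limma, under 2-fold) and -0.07 ± 0.10 (adjusted p = 0.56).

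Some genes had several probes above background, and these did not always move alike. Of the 44 tested genes 15 had more than 1 such probe. Beside Msh5, the genes Bard1, Rad51d, Rad51b and Rad54b had fitted changes over 1 unit apart in the control line. Bard1 had probes at -3.96, -3.67 and -1.01. The second of these was well above background on 4 of 8 arrays. The third had a standard error of 0.45, with control arrays at -3.98 and -2.54 at 24 h. The Rad54b probes were fitted at -6.97 and -4.42, but neither was well above background at 24 h, so the gap is not a measured difference. Rad51d had probes at -1.30 and -0.16, so its fall rests on 1 of 2 probes. Rad51b had probes at -1.27 and -2.31, and the second of these was well above background on 4 of 8 arrays. Its 4 lowest readings were those at 24 h, from -6.53 to -5.86, so the size of its fall is not measured. In the line labelled knockdown the same probes gave -0.20 ± 0.08 and -2.02 ± 0.25. For the other 10 genes the probes lay within 0.34 of each other in the control line. In the line labelled knockdown they lay within 0.354, except those of Xrcc2, which were at -3.17 and -4.13, the second being well above background on 4 of 8 arrays.

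**Figure D3:**
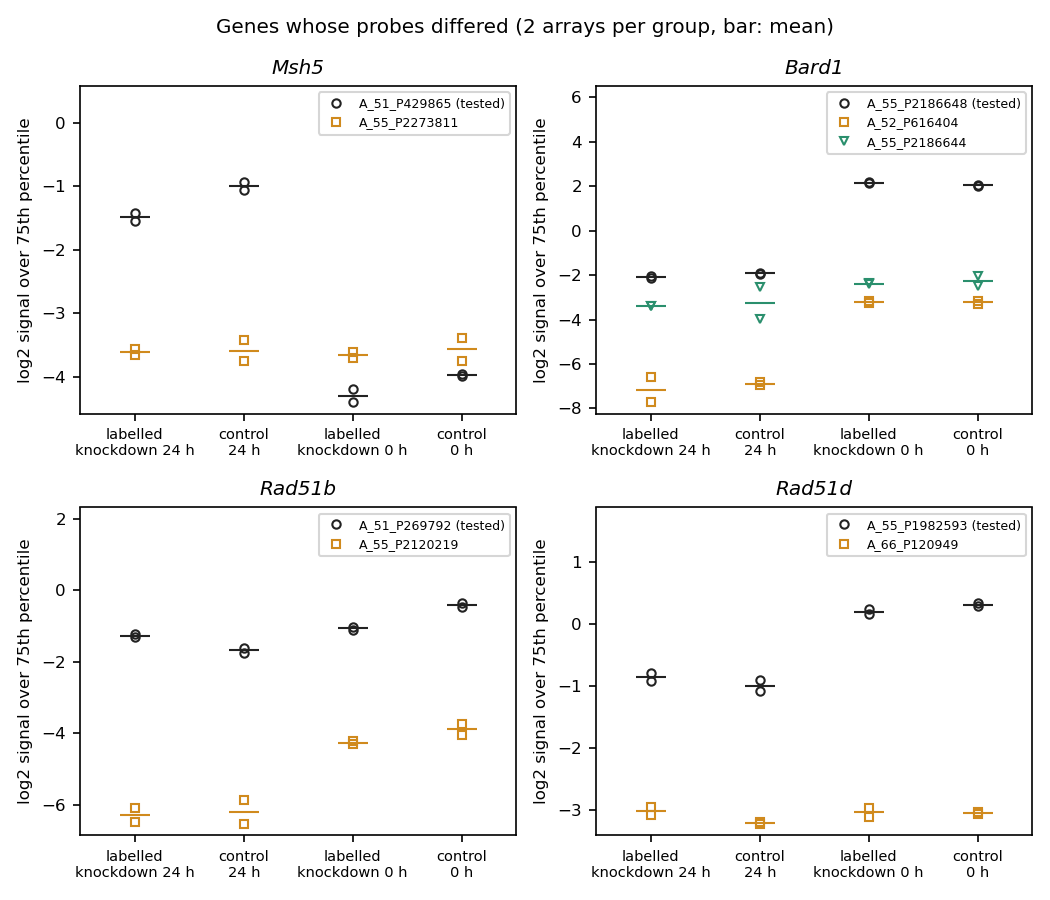
Each panel shows 1 gene, with log2 signal over the array's 75th percentile on the vertical axis, the 4 groups on the horizontal axis, 1 symbol per array and a bar at the mean of 2 arrays. For Msh5 the tested probe is higher at 24 h than at 0 h while the other is level, and for Rad51d the tested probe is lower while the other is level. Both Rad51b probes are lower at 24 h in the control line.

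The line labelled knockdown was then set against the control line at each time. These comparisons use the same arrays as the inductions and are not separate evidence. At 24 h 0 of 44 genes were called, where 2.04% of all tested genes were. At 0 h 0 of 44 were called, where 1.74% of all tested genes were. By an unadjusted limma p under 0.05, 18 genes differed at 24 h and 8 at 0 h, where 31.3% and 30.7% of all tested genes did. The 95% interval stayed inside 2-fold in both directions for 42 of 44 genes at 24 h and 43 at 0 h, so a 2-fold difference lay outside most intervals. Brca1, Fancd2 and Rad54b were not well above background in either line at 24 h, and no fold between the lines can be given for them there. Fancd2 and Rad54b are among the 42, but their 24 h intervals compare dim readings and do not limit a difference.

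**Figure D4:**
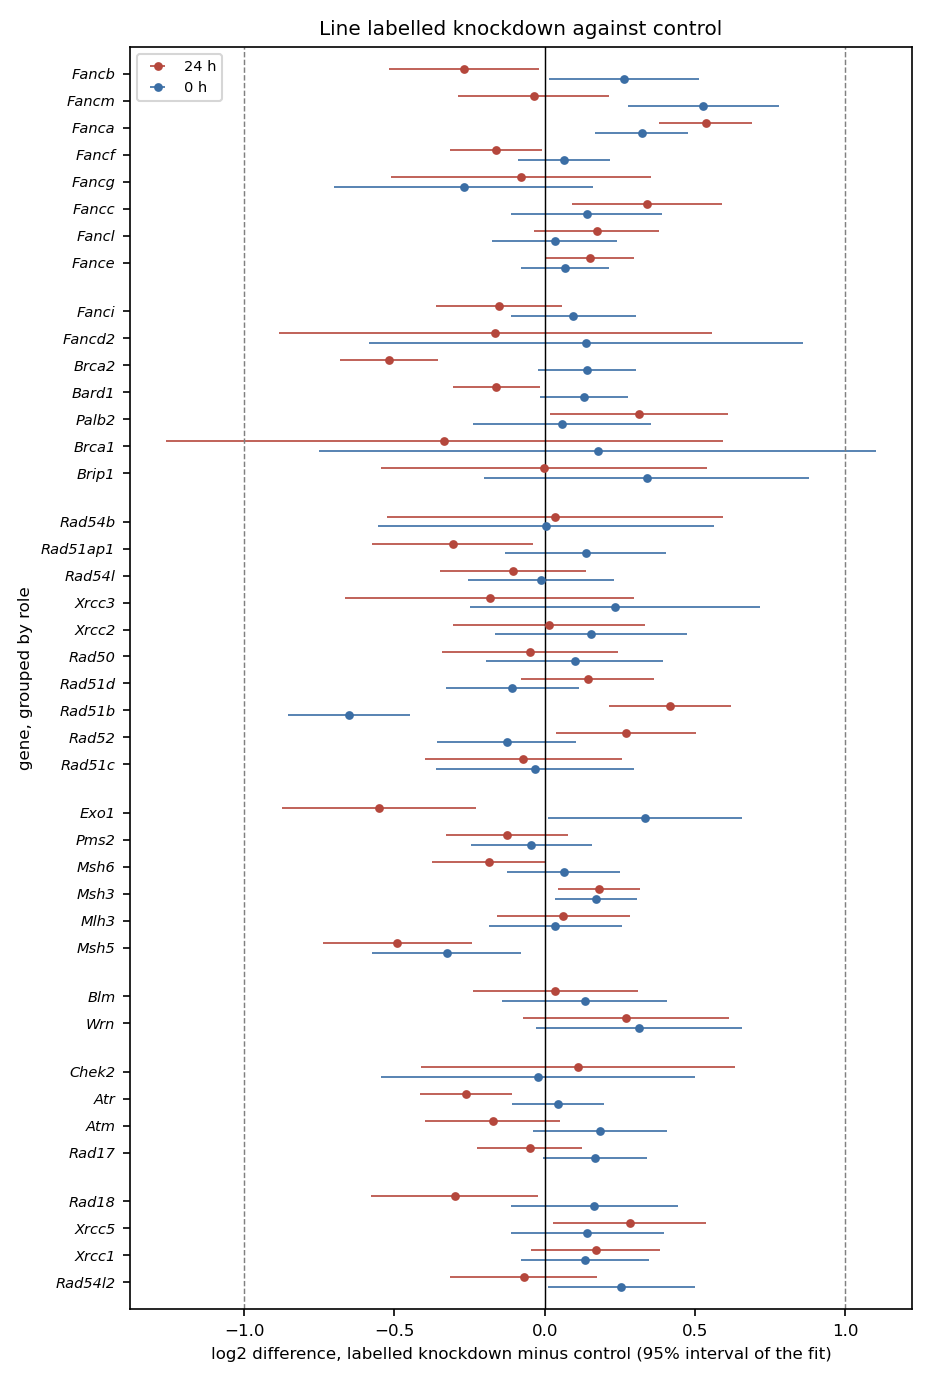
Points give the log2 difference, line labelled knockdown minus control, for 41 of the 44 genes at 24 h (upper point of each pair) and at 0 h (lower point), with 95% intervals of the limma fit. Dashed lines mark a 2-fold difference, which no point reaches. Rad51b changes side between the times, and Brca2 and Exo1 lie below 0 at 24 h and above 0 at 0 h.

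Smaller differences passed the adjusted p alone, for 7 of 44 genes at 24 h and 3 at 0 h, where 13.8% and 13.5% of all tested genes passed it. Among these at 24 h were Fanca at 0.54 ± 0.06, Rad51b at 0.42 ± 0.08, Atr at -0.26 ± 0.06, Msh5 at -0.49 ± 0.10, Brca2 at -0.52 ± 0.07 and Exo1 at -0.55 ± 0.13. At 0 h they were Fancm at 0.53 ± 0.10, Fanca at 0.32 ± 0.06 and Rad51b at -0.65 ± 0.08. Fanca was the only one of those named that was higher at both times in the line labelled knockdown. It read 0.38 and 0.44 at 24 h, against -0.17 and -0.08 in the control line, and 2.12 and 2.08 at 0 h, against 1.76 and 1.80 in the control line. At 24 h 18 of 44 genes were fitted above 0 and 26 below, beside 9052 and 7107 of all tested genes. At 0 h the counts were 34 and 10, beside 8171 and 7988 of all tested genes.

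The change on induction was compared between the lines as an interaction, the change in the line labelled knockdown minus that in the control line. Of 44 genes 1 was called, Rad51b, where 3.82% of all tested genes were. By the adjusted p alone 4 of 44 differed, where 16.3% of all tested genes did. The Rad51b interaction was 1.07 ± 0.11 (adjusted p = 0.0079 in limma), and its other probe gave 0.28 ± 0.36. That other probe was well above background on only 4 arrays, and its 24 h readings, from -6.53 to -5.86, were its 4 lowest. Its interaction is therefore not a measured difference and cannot check the call. The first 30 bases of the 2 Rad51b probes are shown since the call rests on A_51_P269792. Both lie on the plus strand of chromosome 12 in mm9.
A_51_P269792, chr12:80915000-80915059: ggactgcgctgcttggaaaaaggaaacgga
A_55_P2120219, chr12:80609478-80609537: gccagaacttcagcagatttgtaagaatgt
The call was lost under several other settings, with values from 0.68 to 1.07. Brca2 at -0.66 ± 0.09 (adjusted p = 0.013) and Exo1 at -0.88 ± 0.18 (adjusted p = 0.032) passed the adjusted p and missed the 2-fold threshold. For both the fall was deeper in the line labelled knockdown. Without array 1 of its 24 h group Exo1 passed the threshold as well, at -1.05. Without array 2 of that group Brca1 did, at -1.11, though Brca1 was not well above background at 24 h in either line.

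Deep falls and shallow ones differed in this measure as a description. Of the 14 genes at -3 or below in the control line, 12 had an interaction below 0, with a median of -0.30. Of the other 30 genes, 15 did, with a median of -0.01. Over all 16159 tested genes 7303 were below 0 and 8856 above, with a median of 0.05. Among the 14, Fancd2 and Rad54b were not well above background at 24 h in either line. Fancb, Fanci and Palb2 were not well above background at 24 h in the control line. For all of these genes the sign of the interaction is not a measured difference. The genes were sorted here by a value that enters the interaction, so the 2 medians support no test.

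The arrays came from 2 slides, each with 1 array of every group. Within each slide all 37 genes that fell in the control line were at least 2-fold lower at 24 h. In the line labelled knockdown all 36 were lower on both slides, and 34 of them by at least 2-fold on both. These genes were picked by their mean over the same 2 slides, so the counts are a description and not separate evidence. The median over the 44 genes was -1.99 and -1.92 on the slides in the line labelled knockdown, and -1.75 and -1.79 in the control line. Over all tested genes it was 0.13 and 0.13 in the line labelled knockdown, and -0.02 and 0.01 in the control line.

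Neighbouring pathways were read from lists of other genes. Beside their counts, 15.4% of all tested genes fell and 16.7% rose in the line labelled knockdown. In the control line 13.1% fell and 14.1% rose. Replication fork genes moved with the repair genes. Of 30 such genes 29 fell in the line labelled knockdown and 28 in the control line, with medians of -3.89 and -3.71. Tk1, which salvages thymidine for DNA synthesis, changed by -5.87 ± 0.05 and -5.71 ± 0.05, while Gins3, a subunit of the replicative helicase, was at 0.13 ± 0.13 and -0.19 ± 0.13 and did not pass the test. The share of the repair genes' fall that goes with these division genes was not tested.

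Among 26 other homologous repair factors 17 fell and 1 rose in each line, with medians of -1.82 and -1.71. Recql4, a RecQ helicase, changed by -5.35 ± 0.12 and -5.14 ± 0.12, while Brcc3, a deubiquitinase found with BRCA1, was at -0.13 ± 0.09 and 0.08 ± 0.09. The rising gene was Mms22l, at 1.08 and 1.18, whose partner Tonsl fell, at -3.06 and -3.0; these were named after their values were seen. Of 17 checkpoint partners 11 fell in the line labelled knockdown and 10 in the control line. Clspn, which helps ATR activate CHEK1, was not well above background on any 24 h array and was at least 15.0-fold lower in the line labelled knockdown and at least 10.2-fold lower in the control line. Rad9a, a subunit of the checkpoint clamp, was at -0.72 ± 0.10 and -0.76 ± 0.10, under 2-fold.

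The lists of other repair routes gave other counts. In nucleotide excision repair 4 of 17 genes fell in the line labelled knockdown and 3 in the control line, where 15.4% and 13.1% of all tested genes fell. Its medians were -0.37 and -0.40. Ddb2, which recognises ultraviolet damage, changed by -1.51 ± 0.11 and -2.37 ± 0.11, while Cetn2, part of the damage sensor, was at -0.09 ± 0.06 and -0.04 ± 0.06. In base excision repair 5 of 18 fell and 2 rose in the line labelled knockdown, and 7 fell and 2 rose in the control line. Neil3, a glycosylase not well above background on any 24 h array, was at least 16.5-fold lower in the line labelled knockdown and at least 13.6-fold lower in the control line, while Mpg, another glycosylase, was at 0.22 ± 0.08 and 0.18 ± 0.08.

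In end joining 1 of 8 genes fell and 1 rose in each line, near the shares of all tested genes. Dclre1c, the Artemis nuclease that opens hairpins during antigen receptor rearrangement, rose by 2.55 ± 0.06 and 1.78 ± 0.06, and Polm, a gap-filling polymerase, was at 0.17 ± 0.07 and -0.04 ± 0.07. Of 8 translesion polymerase genes 3 fell in each line. Polq, which also joins ends through short homologies, changed by -4.25 ± 0.84 in the line labelled knockdown, with 1 of 2 arrays at 24 h well above background, and was at least 15.9-fold lower in the control line, where neither was. Rev3l, the catalytic subunit of polymerase zeta, was at -0.68 ± 0.08 and -0.07 ± 0.08. Medians in these 2 lists were 0.00 and -0.10 for end joining and -0.88 and -0.97 for translesion polymerases.

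**Figure D5:**
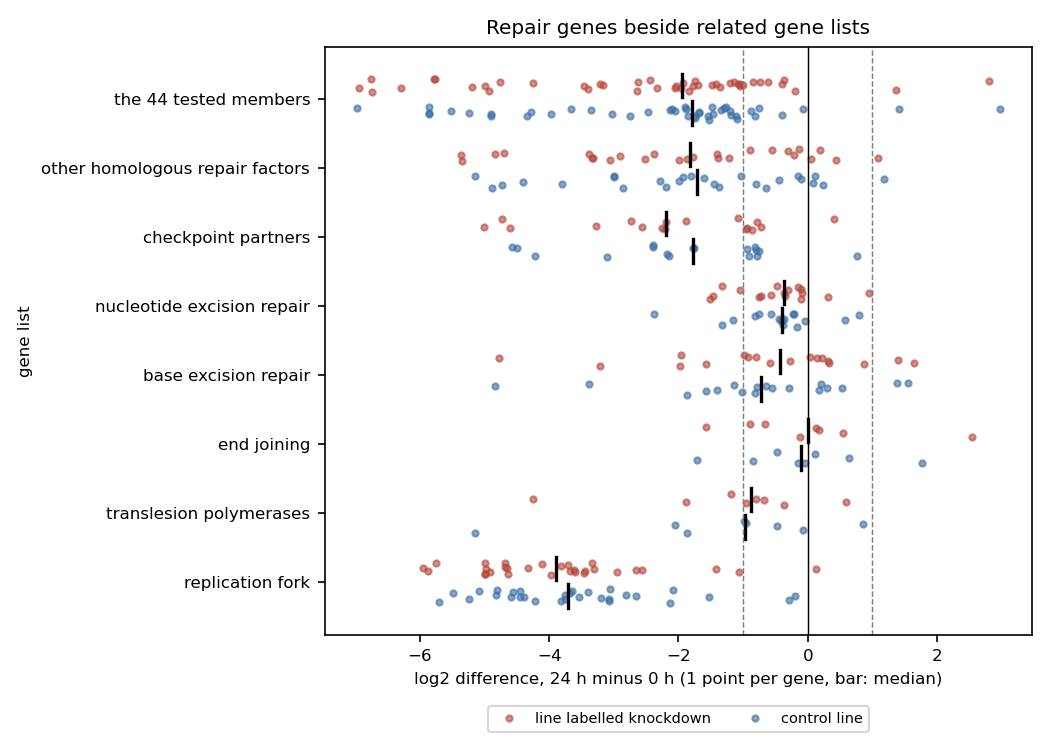
Each point is 1 gene's log2 difference, 24 h minus 0 h, in the line labelled knockdown (upper row of each list) and the control line (lower row), with a bar at the list's median. Dashed lines mark a 2-fold change. Replication fork genes have medians of -3.89 and -3.71, the 44 repair genes -1.95 and -1.79, and end joining genes 0.00 and -0.10.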

How the data were processed

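Per the labels' protocols, Cy3-labelled RNA was made from 500 ng of total RNA. Per the file headers, Feature Extraction 10.7.3.1 gave each spot an intensity, already background-subtracted, on 1-colour Agilent arrays annotated on mm9. Between 47.4% and 55.6% of spots per array were well above background, and none was saturated; the number of arrays limits precision. The authors also deposited log2 values, made with limma per the submitters' processing notes. Processed intensities were divided by each array's 75th percentile and log2-transformed. Spots marked as outliers (155 to 219 per array) were dropped. A probe was kept where 1 group or more had both arrays well above background, and the brightest kept probe stood for its gene. The 4 group means were estimated over the 8 arrays in limma 3.58.1 (R 4.3.3), with 2-sided p-values adjusted by Benjamini-Hochberg. Recovery was tested on simulated data for the control induction: 172 of 200 genes changed 4-fold among 16159 were called, with 1 false call. A bound compares the bright group's mean with the dim group's after each dim reading was raised to the lowest signal well above background on its array. Replicate numbers follow the slides, and duplicate differences correlated between groups at 0.298 to 0.412, so the numbers pair the arrays. Genes named with values by array are, in each role, the 2 with the largest and the 1 with the smallest control change, plus every riser and every line or interaction call; companion lists are named by their largest and smallest control change. Of the tested members, 3 are not reported singly here, nor drawn by name. The members and lists were chosen with earlier results of these data known. Alternatives were other scalings, background corrections, filters, probe rules and left-out arrays.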

Additional observations from a re-analysis of the deposited data

Results flagged for a closer look

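Rad51b was picked out because its induction differed between the lines by the test of that difference itself. The change in the line labelled knockdown minus that in the control line was 1.07 (log2 scale, limma adjusted p = 0.0079), with higher readings at 24 h and lower ones at 0 h on both arrays of the line labelled knockdown. The other Rad51b probe gave 0.28 ± 0.36. It was well above background on only 4 arrays, and its 4 lowest readings were those at 24 h, so it cannot check this difference. No group reached 4 samples, so no array was tested as an outlier.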

How the results depend on the processing

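The number of genes that fell stayed between 27 and 37 in the line labelled knockdown and between 28 and 37 in the control line under every other scaling, background correction, filter and probe rule with the 2-fold threshold. The lowest counts belong to the filter that kept 35 genes. Without the 2-fold threshold each count was 41, where 32.0% and 31.1% of all tested genes fell, and 7 genes differed between the lines at 24 h, 3 at 0 h and 4 in the interaction, where 13.8%, 13.5% and 16.3% of all tested genes did. The interaction count of 1 was 0 with median scaling, with normexp and quantile normalization, with the authors' deposited log2 values, with no filter on dim probes and with the mean of all probes. Leaving out 1 array at a time gave 34 to 36 falling genes in the line labelled knockdown, 36 to 37 in the control line, 0 at 24 h and at 0 h, and 0 to 3 for the interaction. The lone array was then assumed to vary like the other groups. With the replicate block the counts were 36, 37, 0, 0 and 1, and no call changed. Rad51b lost its interaction call at 0.92 with median scaling, 0.84 with normexp or the deposited values, 1.07 without a filter (adjusted p = 0.083 in limma), 0.68 with the mean of probes and 0.99 without array 2 of the control 24 h group. Named falls that missed a threshold under some setting were those of Brca1, Fancg, Rad51d and Wrn in both lines, and of Fancc and Fancl in the line labelled knockdown; Rad51d gave -0.51 and -0.73 with the mean of its probes. Mlh3 with median scaling (-1.10) and Rad51b with the mean of probes (-1.11) became called as falling in the line labelled knockdown. No call was reversed. The all-gene median was -0.11 in both inductions with median scaling, against 0.14 and -0.00. The cause of these shifts was not tested.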
